A study of Mus musculus with 16 samples.

Results

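The genes described here are 47 cell cycle and DNA replication genes, followed across 16 bulk RNA-seq libraries of transplanted mouse glioblastomas, a malignant brain tumour. They were taken by symbol from the table of all libraries, where all 47 of 47 were present among 26466 genes, and all 47 passed the filter on low values. The list holds 8 replication genes (Mcm2 to Mcm7, Cdc45 and Gins2), 2 licensing genes, 4 DNA synthesis genes, 4 nucleotide synthesis genes and 4 S-phase cyclin and kinase genes. It also holds 5 transcriptional regulators, 17 mitosis genes and 3 further proliferation genes, Mki67, Top2a and Plk4. The labels divide the tumours into Type 1 and Type 2, and some tumours of each kind had their TAMs depleted. TAMs are tumour-associated macrophages, which in the brain include microglia and cells that enter from the blood. The groups are Type 1 TAM depleted (n = 3), Type 1 Control (n = 5), Type 2 TAM depleted (n = 4) and Type 2 Control (n = 4), and every tumour of every group was transplanted. The depleting agent, the alleles that drive each tumour kind, the host strain and the age of the animals are not known from these sources. Nothing in the labels ties a tumour to an animal or a batch, and all p-values here refer to the spread among the libraries, which may be technical.

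A dividing cell first licenses its replication origins, when Cdc6 and Cdt1 load the Mcm helicase onto DNA. Cdc45 and the GINS complex then turn the helicase on as cyclin-dependent kinases drive the cell into S phase, and polymerases copy the strands. The mitotic programme of cyclin B, Cdk1, Aurora and Polo-like kinases and the spindle checkpoint follows, and much of it is transcribed only as the cell approaches division. E2F factors activate many genes of S phase, while the MuvB complex with B-Myb and FoxM1 activates many genes of mitosis. In brain tumours the transcripts of both programmes come mainly from cycling tumour cells, while mature neurons have left the cycle. In bulk tissue, fewer cells of a type and less RNA per cell cannot be told apart.

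Promoter windows are shown for 2 replication and 2 mitosis genes, because the comparison below turns on these gene classes. Each runs from 250 bases before to 50 bases after the annotated start (RefSeq, GRCm38.p6), and 39 of the 47 genes had a window. Capitals mark the motifs searched on both strands, which were the E2F site, the cell cycle homology region (CHR) and the CCAAT box. The E2F site was searched as TTCCCGC, which is the usual form, and in the related forms that carry TTGGCGC in its place, that carry TTCGCGC instead, and that carry TTGCCGC as the last. The CHR was searched as TTTGAA in the main form and with the other form being TTCGAA, and the box as the letters of its name. The window of Mcm3, a helicase subunit, lies at chr1:20820263-20820562 on the minus strand and that of Mcm5, another subunit, at chr8:75109259-75109558 on the plus strand. The window of Ccnb2, a mitotic cyclin, lies at chr9:70421505-70421804 and that of Cdc20, an activator of the anaphase-promoting complex, at chr4:118437294-118437593, both on the minus strand.
Mcm3: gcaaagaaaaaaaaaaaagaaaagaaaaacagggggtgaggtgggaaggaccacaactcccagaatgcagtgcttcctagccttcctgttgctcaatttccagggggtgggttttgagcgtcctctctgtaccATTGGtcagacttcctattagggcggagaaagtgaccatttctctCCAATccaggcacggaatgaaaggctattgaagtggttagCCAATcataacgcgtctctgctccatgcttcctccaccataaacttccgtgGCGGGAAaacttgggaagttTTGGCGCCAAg
Mcm5: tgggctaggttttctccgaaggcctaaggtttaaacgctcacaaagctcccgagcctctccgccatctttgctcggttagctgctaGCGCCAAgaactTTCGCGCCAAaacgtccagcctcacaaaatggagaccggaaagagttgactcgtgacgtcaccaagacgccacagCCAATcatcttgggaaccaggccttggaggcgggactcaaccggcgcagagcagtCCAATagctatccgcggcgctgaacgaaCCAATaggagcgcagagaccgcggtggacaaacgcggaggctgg
Ccnb2: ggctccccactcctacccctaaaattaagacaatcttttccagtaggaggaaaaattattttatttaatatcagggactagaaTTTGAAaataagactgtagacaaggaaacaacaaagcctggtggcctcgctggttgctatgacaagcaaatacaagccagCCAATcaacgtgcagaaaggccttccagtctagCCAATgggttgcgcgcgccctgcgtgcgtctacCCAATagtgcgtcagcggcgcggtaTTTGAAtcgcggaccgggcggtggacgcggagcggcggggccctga
Cdc20: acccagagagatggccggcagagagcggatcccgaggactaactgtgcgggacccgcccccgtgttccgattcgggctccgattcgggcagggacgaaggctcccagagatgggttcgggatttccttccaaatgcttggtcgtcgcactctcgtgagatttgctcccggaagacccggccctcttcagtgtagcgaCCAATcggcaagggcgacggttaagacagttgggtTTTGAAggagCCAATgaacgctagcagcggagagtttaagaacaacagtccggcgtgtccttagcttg
The Mcm3 and Mcm5 windows hold 3 E2F matches each, a pair of which overlap on opposite strands, and no CHR. The Ccnb2 window holds 2 CHR matches and the Cdc20 window 1, and neither holds an E2F match. An E2F match was present in 4 of the 6 replication genes with a window (Mcm3, Mcm5, Mcm6 and Mcm7) and in 2 of the 15 mitosis genes (Ccnb1 and Cdk1), against 10.9% of all 27025 genes with a window. A CHR match was present in 3 of 6 replication genes (Mcm2, Mcm7 and Cdc45) and 11 of 15 mitosis genes, against 21.7% of all genes with a window. The CCAAT box, bound by NF-Y, was present in 6 of 6 replication and 13 of 15 mitosis genes, against 41.1% of all genes with a window. These matches describe the letters of the windows and not occupied sites.

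The libraries held 4.21 to 18.3 M recovered reads, and values are given below as normalized counts, the reads of a gene divided by the size factor of its library. The libraries fell into 2 sets by their reads in 997 olfactory and vomeronasal receptor genes, with 2717 to 8650 per M reads in 9 high-background libraries and 97.0 to 811 per M reads in the other 7. All 3 Type 1 TAM depleted libraries were low-background and all 5 Type 1 Control libraries high-background, so that treatment and background cannot be told apart in Type 1. In Type 2 the high-background libraries were TAM depleted 3 and 4 and Control 1 and 3. A single gene, Gm10800, took 25.7% and 41.3% of the reads in these TAM depleted libraries and 58.2% and 13.8% in these Control libraries. Its share was 16.6% to 35.1% in Type 1 Control and 0.233% to 2.03% in Type 1 TAM depleted libraries. The mean log2 level of 12 TAM markers was 6.83 ± 0.49 in Type 1 TAM depleted and 7.26 ± 0.28 in Type 1 Control libraries (SD, n = 3 and 5), with 10 of 12 markers lower and 0 past the test. It was 7.05 ± 0.56 in Type 2 TAM depleted and 8.41 ± 0.60 in Type 2 Control libraries (SD, n = 4 each), with 12 of 12 lower and 3 past the test. By library the level was 6.741, 6.925, 6.666 and 7.866 in Type 2 TAM depleted 1 to 4. That of TAM depleted 4 was thus close to the lowest Type 2 control, Control 3 (7.878).

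Mki67, the antigen by which pathologists score proliferation, was the most abundant of the 47 genes and was detected in every library. Its gene lies at chr7:135689784-135716361 on the minus strand (GRCm38). Mki67 had 10019, 6808 and 4149 normalized counts in the Type 1 TAM depleted libraries, against 4029, 3184, 1666, 3068 and 4302 in the Type 1 Control libraries. In Type 2 it had 5978, 889.7, 6719.6 and 1339 in the TAM depleted libraries, against 4568, 10765, 3301 and 4477 in the Control libraries. Type 2 TAM depleted 2 and 4 were thus below every control of their kind, while TAM depleted 1 and 3 lay within the controls. Top2a, the topoisomerase that untangles replicated chromosomes, had the same order of the Type 2 depleted libraries. It had 2319, 427, 3794 and 738 in Type 2 TAM depleted libraries, against 2795, 4361, 1131 and 3586 in Type 2 Control libraries. Its Type 1 values were 5338, 4965 and 1978 in TAM depleted libraries, against 2652, 1767, 1005, 2385 and 2275 in Control libraries, and TAM depleted 1 and 2 stood above all 5 controls.

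**Figure D1:**
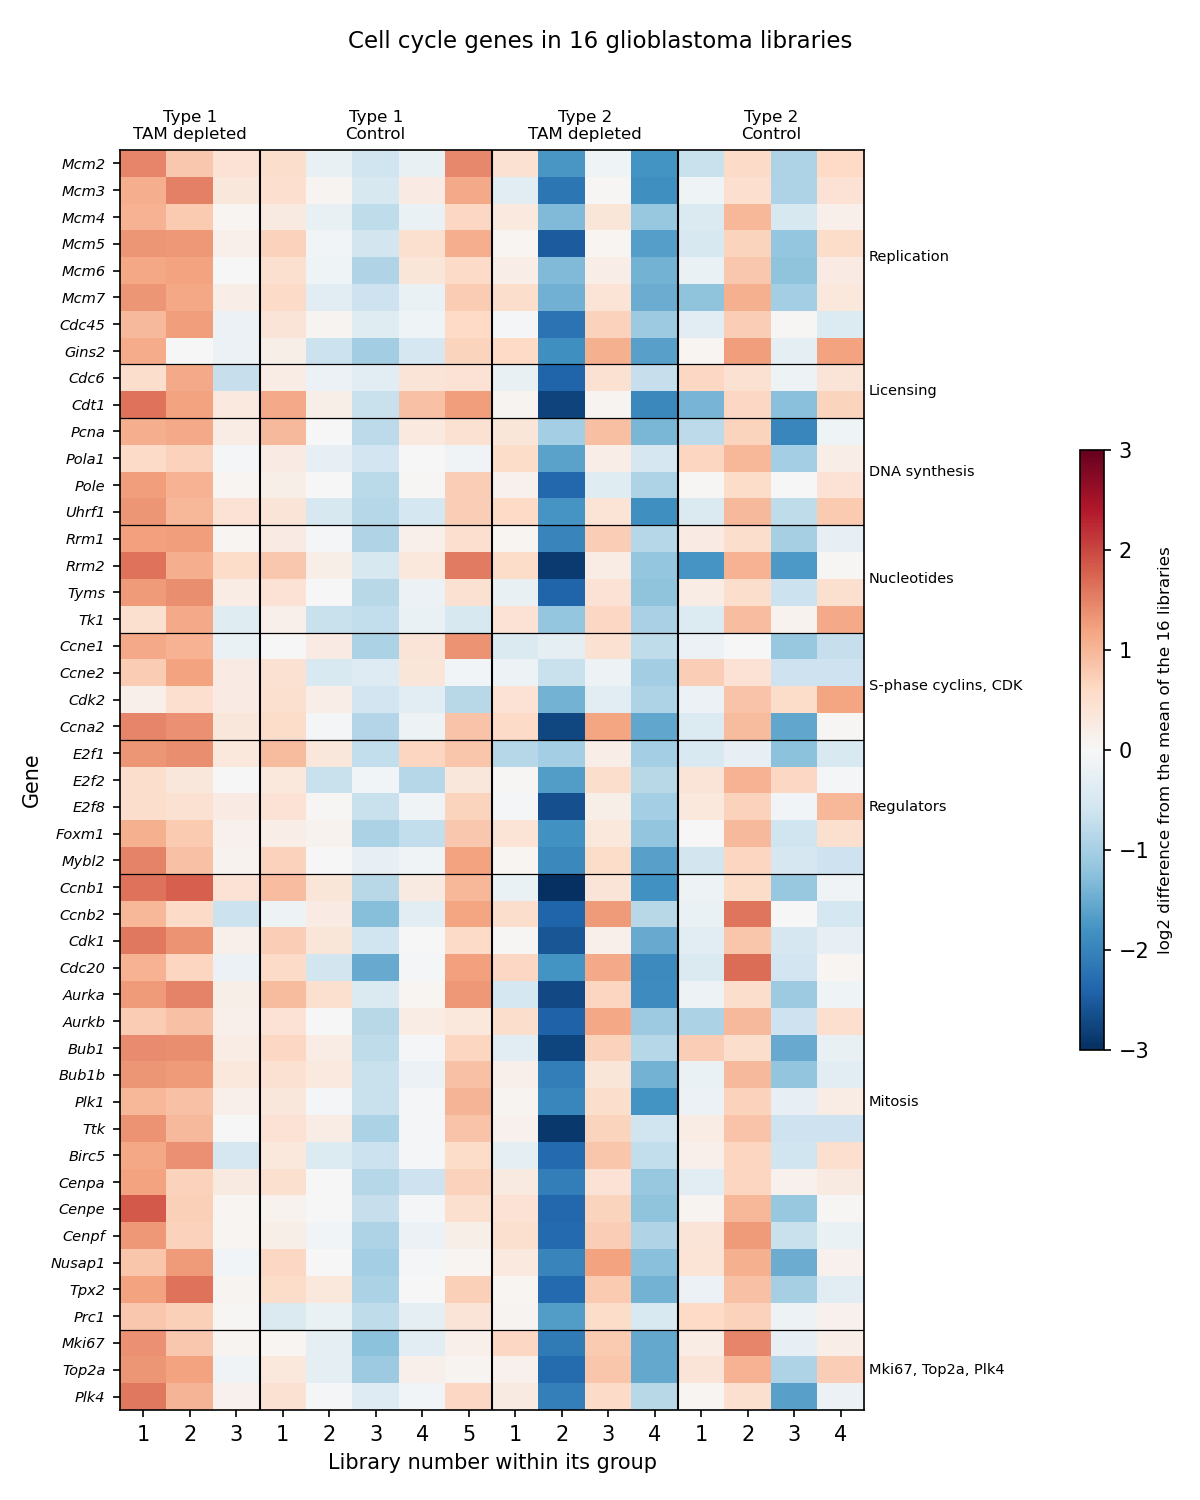
Difference of each gene's log2(normalized count + 1) from its mean over the 16 libraries, with the 47 genes in rows by role and the libraries in columns by group; red is above the mean and blue below. The Type 2 TAM depleted 2 column is the lowest of the 16 for 38 of 47 genes, and the TAM depleted 4 column is also blue throughout.

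Among the replication genes, Mcm2, a subunit of the replicative helicase, had 631, 136, 419.6 and 131 normalized counts in Type 2 TAM depleted libraries, against 289.5, 680.0, 242 and 695 in Type 2 Control libraries. It had 1264, 802 and 624 in Type 1 TAM depleted libraries, against 666, 395, 302, 395 and 1242 in Type 1 Control libraries, and Control 5 and TAM depleted 1 had nearly equal values. Mcm5 had 713, 120.2, 712 and 218 in Type 2 TAM depleted libraries, against 489.7, 1090.7, 307 and 1005 in Type 2 Control libraries. TAM depleted 2 and 4 were again the 2 lowest of the 8 Type 2 libraries for both genes. For Mcm5 the Type 1 values were 1724, 1685 and 754 in TAM depleted libraries, against 1110.5, 644, 466, 954 and 1451 in Control libraries. Cdc45, which joins the helicase to activate it, had 145, 31.7, 244 and 70.5 in Type 2 TAM depleted libraries, against 118, 253, 154 and 113 in Type 2 Control libraries. The groups overlapped, since TAM depleted 1 and 3 lay within the controls. Its Type 1 values were 297, 358 and 133 in TAM depleted libraries, against 197, 158, 116, 137 and 229 in Control libraries. Gins2, a GINS subunit, had 72.2, 12.6, 100.3 and 14.8 in Type 2 TAM depleted libraries, against 50.04, 115, 39.2 and 110.5 in Type 2 Control libraries. In Type 1 it had 105, 47.2 and 42.4 in TAM depleted libraries, against 53.7, 30.1, 22.5, 33.2 and 75.8 in Control libraries. Gins2 was the least expressed of the 47 genes per length, at 14.1 normalized counts per kb over all libraries, and 67.3% of its exon length is shared with Gse1 on the opposite strand. The library kit does not mark strand, so the Gins2 values are uncertain.

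Pcna, the sliding clamp of the DNA polymerases, did not follow the helicase genes in every library. It had 614, 233, 884 and 182 normalized counts in Type 2 TAM depleted libraries, against 275, 759, 122 and 436 in Type 2 Control libraries, and the lowest value of the 8 was that of Control 3. In Type 1 it had 1014, 1049.9 and 555 in TAM depleted libraries, against 931, 472, 276, 579 and 649.6 in Control libraries. Rrm2, the regulated subunit of ribonucleotide reductase, had the second largest ratio of highest to lowest library of the 47 genes, 23.0-fold. It had 651, 59.8, 518 and 197 in Type 2 TAM depleted libraries, against 129, 911, 134 and 451 in Type 2 Control libraries. Control 1 and 3 were lower than TAM depleted 4 for this gene. The Type 1 values of Rrm2 were 1376, 940.4 and 646 in TAM depleted libraries, against 775, 504, 317, 555 and 1306 in Control libraries. Ccne1, the cyclin that opens S phase with Cdk2, had 113, 126, 211 and 90.1 in Type 2 TAM depleted libraries, against 136, 155, 69.4 and 95.8 in Type 2 Control libraries. TAM depleted 2 lay within the controls for Ccne1, which was otherwise the case only for Pcna and E2f1. In Type 1 Ccne1 had 339.8, 321 and 135 in TAM depleted libraries, against 155, 182, 78.7, 204 and 397 in Control libraries.

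E2f1, a transcriptional activator of S-phase genes (chr2:154559407-154569892, minus strand), had a lower mean in Type 2 than in Type 1 tumours in both treatments. It had 127, 114, 262 and 113 normalized counts in Type 2 TAM depleted libraries, against 168, 193, 97.9 and 167 in Type 2 Control libraries. It had 578, 606 and 287 in Type 1 TAM depleted libraries, against 446, 289.9, 137, 359 and 409.6 in Type 1 Control libraries. All 4 Type 2 TAM depleted libraries lay below all 3 Type 1 TAM depleted libraries. Foxm1, an activator of mitotic genes, had 609, 129.8, 574 and 200.0 in Type 2 TAM depleted libraries, against 465, 901, 305 and 642 in Type 2 Control libraries. In Type 1 Foxm1 had 956, 792 and 502 in TAM depleted libraries, against 528, 497, 237, 273 and 805 in Control libraries, and Control 1 and 5 were above TAM depleted 3. Ccnb1, the main mitotic cyclin (chr13:100778650-100786570, minus strand), varied most of the 47 genes, 29.9-fold between its highest and lowest library. Its values were 524, 69.4, 784 and 170.5 in Type 2 TAM depleted libraries, against 539.8, 878, 272 and 559 in Type 2 Control libraries. In Type 1 they were 1875, 2073 and 812 in TAM depleted libraries, against 1149, 769, 336, 727 and 1205 in Control libraries. Ccne2 varied least, 4.82-fold. Cdc20 had 336, 62.8, 484 and 57.4 in Type 2 TAM depleted libraries, against 161, 706, 147 and 228 in Type 2 Control libraries. The Control 2 value stood apart above the other 3 controls. In Type 1 Cdc20 had 448, 343 and 194 in TAM depleted libraries, against 326, 148, 76.2, 213 and 512 in Control libraries.

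**Figure D2:**
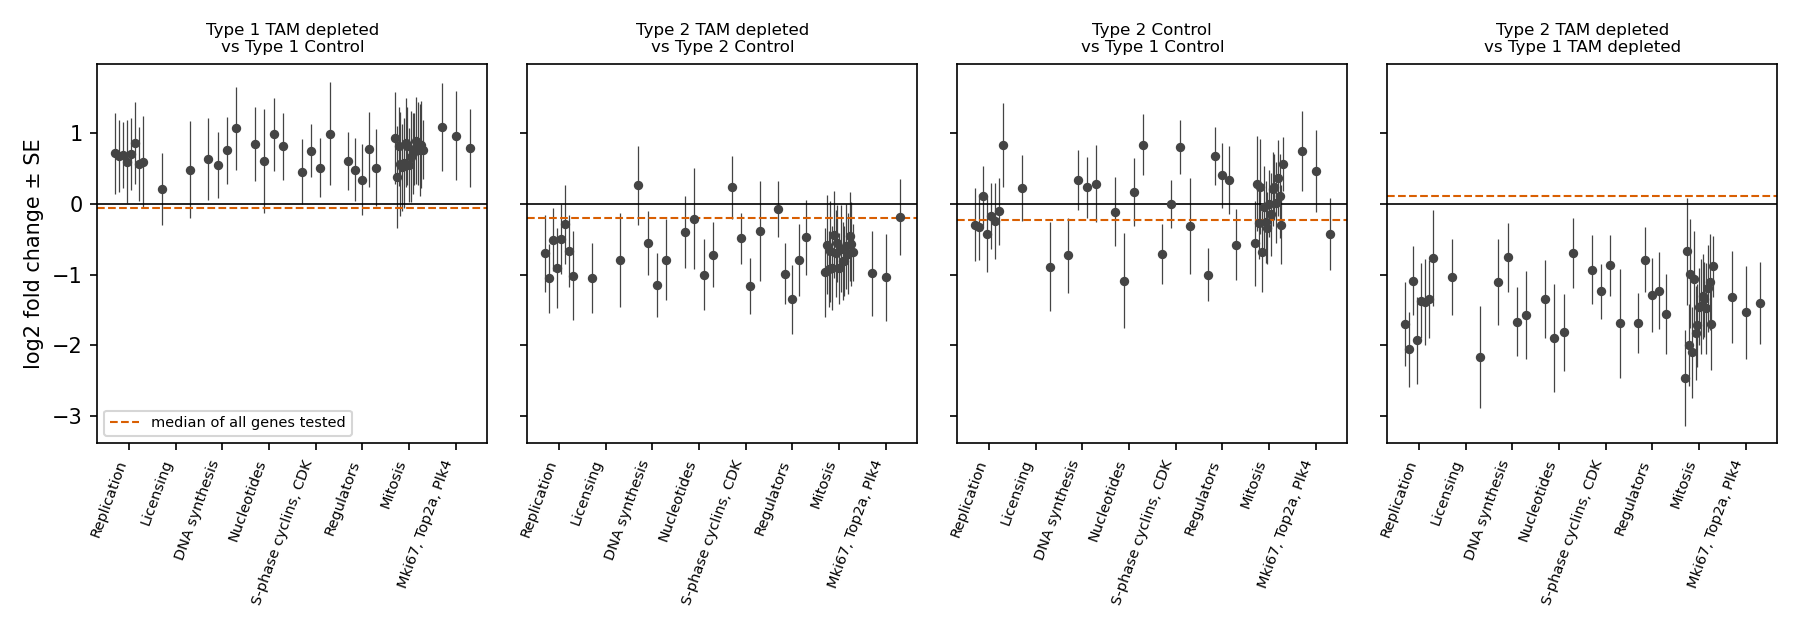
Log2 fold change of log2(normalized count + 1) with its standard error (limma-trend) for the 47 genes by role in 4 comparisons; the dashed line is the median of all 26463 genes tested. The genes lie mostly above the line in Type 1 depletion, mostly below it in Type 2 depletion, on both sides of 0 between the controls, and below it between the depleted groups.

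Setting Type 2 TAM depleted against Type 2 Control tumours asks how cell cycle transcripts stand when TAMs are depleted in this kind. The 47 genes had lower mean levels in the depleted group for 45 genes and higher ones for 2, Pcna (log2 fold change 0.26) and Ccne1 (0.24). Of all genes, 40.6% were higher. Under a scaling on the 3753 genes of high level (a mean of 500 or more), chosen after the data were seen, all 47 were lower, with a median of -1.14 against -0.63 for all genes. The median log2 fold change was -0.70, against -0.21 for all genes, and the values ran from -1.35 for E2f8 to 0.26 for Pcna. None had an adjusted p under 0.05 in limma-trend or limma-voom, where 3.61% of all genes did by limma-trend. By comparison, 6 of the 47 had an unadjusted p under 0.05 by limma-trend, against 18% of all genes. Medians by role were -0.68 for replication, -0.92 for licensing, -0.67 for DNA synthesis, -0.56 for nucleotide synthesis, -0.43 for S-phase cyclins and kinase, -0.79 for regulators and -0.69 for mitosis.

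Cdk2, the kinase partner of the S-phase cyclins (chr10:128697939-128705031, minus strand), had 266, 72.4, 153 and 102 normalized counts in Type 2 TAM depleted libraries, against 172, 353, 287 and 441 in Type 2 Control libraries. Its log2 fold change of -1.16 (SE 0.40) had the smallest adjusted p of the 47 genes, 0.121 by limma-trend. It passed under upper quartile scaling (adjusted p = 0.0435), quantile scaling (0.0477) and the scaling on genes of high level (0.0217). Under these scalings 1289, 1213 and 1466 of 26463 genes passed. None of the 47 passed by limma-voom (smallest adjusted p 0.0905) or, by limma-trend, with background subtracted (0.0913). The same held with a replicate block (0.211) and with the Type 2 libraries alone (0.325). E2f8, a repressor of the E2F family, had 169.5, 26.9, 196 and 85.2 in TAM depleted libraries, against 214, 280.4, 163 and 343 in Control libraries. Its log2 fold change was -1.35 (SE 0.49, limma-trend adjusted p = 0.139), and it passed under the scaling on genes of high level (adjusted p = 0.0476). Pole, the catalytic subunit of the leading-strand polymerase, had 592, 105, 419.6 and 285 in TAM depleted libraries, against 558, 801, 542 and 737 in Control libraries (log2 fold change -1.14, SE 0.45, limma-trend adjusted p = 0.18). E2f2, an activator of S-phase genes, had 112, 33.5, 157 and 60.6 in TAM depleted libraries, against 143, 226, 167 and 105 in Control libraries (log2 fold change -0.99, SE 0.43, limma-trend adjusted p = 0.23). Without TAM depleted 2 the log2 fold change was -0.76 for E2f8, -0.65 for Pole and -0.59 for E2f2. Cdk2, E2f8, Pole and E2f2 each stood within 3 times the receptor background of the library in TAM depleted 4 and Control 1. The groups overlapped for each of these 4 genes, and for all 47; the libraries of both groups did not overlap in 7.25% of all genes.

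The 4 Type 2 TAM depleted libraries stood apart from each other. Against the mean of the 4 Type 2 controls, the median of the 47 genes was 0.17 in TAM depleted 1, -2.17 in TAM depleted 2, 0.52 in TAM depleted 3 and -1.28 in TAM depleted 4. TAM depleted 2 was thus 4.50-fold lower by the median gene and TAM depleted 4 2.44-fold lower, while TAM depleted 1 and 3 were above the control mean. In TAM depleted 1 to 4 the medians of genes of high level were 0.68, 0.70, 0.39 and -0.20. Those of all genes were -0.20, -0.28, 0.12 and 0.17. The median of the 47 genes in TAM depleted 1 was thus below that of genes of high level and above that of all genes. The TAM marker level of these libraries was lowest in TAM depleted 3 (6.666) and highest in TAM depleted 4 (7.866). Whether cell cycle and TAM marker levels go together across libraries was not tested. TAM depleted 2 lay below all 4 controls for 44 of 47 genes, against 33.6% of all genes, and TAM depleted 4 for 36, against 17.1%. TAM depleted 1 lay within the controls for 46 of 47 genes, against 52.2% of all genes, and below them for Cdc6. TAM depleted 3 lay above all controls for 10 genes, among them Pcna, Ccna2, Aurkb and Birc5, against 14.4% of all genes, and below them for 2, Pole and Cdk2, against 16.4%. Without TAM depleted 2 the median log2 fold change of the comparison was -0.24, and without TAM depleted 3 it was -1.12. Within the high-background libraries (2 against 2) the median was 0.02, with 26 genes higher and 21 lower, and within the low-background libraries (2 against 2) it was -1.46, with 47 lower. Neither fit called any of the 47 genes.

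In TAM depleted 2 the mitosis and proliferation genes were further below the controls than most helicase genes. The median difference from the control mean was -2.40 for mitosis genes, -2.54 for Mki67, Top2a and Plk4, -2.60 for licensing genes and -1.90 for replication genes. The lowest were E2f8 (-3.12), Ccnb1 (-2.88), Ttk (-2.86), a spindle checkpoint kinase, and Cdc6 (-2.74). The helicase subunits Mcm6 (-1.23), Mcm7 (-1.24) and Mcm4 (-1.39) were among the least lowered, with Ccne2 (-0.64), Pcna (-0.48), E2f1 (-0.42) and Ccne1 (0.20). In TAM depleted 4 the order of the main classes differed, with -1.44 for replication and -1.24 for mitosis genes. These differences within 1 library have no replicate check.

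Setting Type 1 TAM depleted against Type 1 Control tumours asks the same question in the other kind. Mean levels of all 47 genes were higher in the depleted group, as were those of 48.5% of all genes. The median log2 fold change of the 47 genes was 0.71, against -0.06 for all genes, with a range from 0.21 for Cdc6 to 1.09 for Mki67. The direction depended on the scaling: 44 were higher and 3 lower under upper quartile scaling, 43 and 4 under quantile scaling, and 29 and 18 under the scaling on genes of high level, where the median was 0.08, against -0.67 for all genes. None of the 47 had an adjusted p under 0.05 in limma-trend or limma-voom, and neither did any other gene (0% of genes tested). At an unadjusted p under 0.05 by limma-trend there were 0 of the 47 and 8019 of all genes (30.3%). Leaving out the Type 2 libraries gave 2 of the 47 called, Mki67 (adjusted p = 0.0431) and Uhrf1 (0.0482) by limma-trend, and 9375 of 26463 genes, and the table of the Type 1 libraries alone gave 29 of the 47 and 16381 of 29708 genes.

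Ccne2, the second cyclin E, had 271, 371 and 191 normalized counts in Type 1 TAM depleted libraries, against 220.0, 118, 122, 208 and 152 in Type 1 Control libraries. Its log2 fold change was 0.75 (SE 0.38, limma-trend adjusted p = 0.182). Tyms, thymidylate synthase, had 828, 885 and 396 in TAM depleted libraries, against 461, 337, 191, 302 and 466 in Control libraries (log2 fold change 0.98, SE 0.52, limma-trend adjusted p = 0.204). Prc1, which bundles microtubules of the central spindle, had 605, 565 and 352 in TAM depleted libraries, against 255, 303, 204, 283 and 453 in Control libraries (log2 fold change 0.77, SE 0.42, limma-trend adjusted p = 0.212). Uhrf1, which carries DNA methylation through replication, had 1348, 1072 and 721 in TAM depleted libraries, against 702, 383, 292, 368 and 899 in Control libraries (log2 fold change 1.07, SE 0.59, limma-trend adjusted p = 0.221). The groups overlapped for all 47 genes, where those of 39.1% of all genes did not. TAM depleted 1 was above all 5 controls for 39 of the 47 genes (27.2% of all genes) and TAM depleted 2 for 36 (29.6%), while TAM depleted 3 lay within the controls for 46 (36.8%). Control 3 was the lowest of the 5 controls for 44 of the 47 genes, against 27% of all genes. Genes of high level were also higher in each depleted library, with medians of 0.66, 0.66 and 0.58 above the control mean.

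The responses of both kinds can be set against each other as the Type 2 response minus the Type 1 response. This difference was below 0 for all 47 genes, while 56% of all genes were above 0. It ran from -2.07 for Mki67 to -0.22 for Ccne1, with a median of -1.41 against 0.16 for all genes. Under quantile scaling 2 of the 47 were above 0, and 1 was with the background set as a term. Without Type 1 TAM depleted 1, Type 1 Control 3 or Type 2 Control 2, 1 of the 47 was above 0 each time. None had an adjusted p under 0.05 in limma-trend or limma-voom, and neither did any other gene (0% of genes tested), while 15 of the 47 had an unadjusted p under 0.05, against 10.1% of all genes. The smallest p-values were those of Pole, at -1.90 (SE 0.65, limma-trend adjusted p = 0.462), and Cdk2, at -1.68 (SE 0.57, adjusted p = 0.462). Tyms followed at -1.98 (SE 0.73, limma-trend adjusted p = 0.47) and Prc1 at -1.46 (SE 0.58, adjusted p = 0.476). Without Type 2 TAM depleted 2 the median was -0.94.

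Type 2 Control and Type 1 Control tumours, compared to see how the kinds stand without depletion, had mean levels that differed in either direction. Of the 47 genes 23 were higher and 24 lower in Type 2 Control, where 37.8% of all genes were higher. The median log2 fold change of the 47 genes was -0.00, against -0.23 for all genes, with a range from -1.08 for Rrm2 to 0.84 for Tk1. None had an adjusted p under 0.05 in limma-trend or limma-voom, where 3.09% of all genes did by limma-trend; 2 of the 47 had an unadjusted p under 0.05, against 13.7% of all genes. The libraries overlapped for each of the 47 genes, while those of 6.95% of all genes did not. E2f1 averaged 157 ± 40.9 normalized counts in Type 2 Control and 328 ± 122 in Type 1 Control libraries (SD, n = 4 and 5), with a difference of -0.999 on the log2 scale and a limma-trend adjusted p of 0.205 (SE 0.38). Cdk2 averaged 313 ± 113 in Type 2 Control and 178 ± 68.3 in Type 1 Control libraries (log2 fold change 0.81, SE 0.38, limma-trend adjusted p = 0.356). The Cdk2 value was -0.75 with the background of receptor genes subtracted. Tk1, a thymidine kinase, averaged 325 ± 149.7 in Type 2 Control and 170.3 ± 45.9 in Type 1 Control libraries (log2 fold change 0.84, SE 0.43, limma-trend adjusted p = 0.425). E2f2 averaged 160.3 ± 50.8 in Type 2 Control and 101.40 ± 36.7 in Type 1 Control libraries (log2 fold change 0.68, SE 0.41, limma-trend adjusted p = 0.506). Within the high-background libraries (2 Type 2 against 5 Type 1 controls) the median was -0.44 and 1 of the 47 passed, against 1057 of 26463 genes. It was Rrm2 (log2 fold change -2.22, limma-trend adjusted p = 0.0216), which is named here after its value was seen. Rrm2 stood within 3 times the receptor background in Type 2 Control 1, 1 of the 2 Type 2 libraries of that fit.

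Type 2 TAM depleted tumours had lower levels than Type 1 TAM depleted tumours for all 47 genes, while 55.8% of all genes were higher. The median log2 fold change was -1.37, against 0.11 for all genes, and the values ran from -2.47 for Ccnb1 to -0.67 for Ccnb2. None had an adjusted p under 0.05 in limma-trend or limma-voom, where 0.185% of all genes did by limma-trend; 32 of the 47 had an unadjusted p under 0.05, against 12.1% of all genes. For 8 genes, Mcm3, Mcm5, Cdt1, Ccne2, E2f1, E2f8, Ccnb1 and Cdk1, all 4 Type 2 libraries lay below all 3 Type 1 libraries. Of all genes, 5.77% were lower without overlap, and 9.07% were without overlap in either direction. E2f1 averaged 154 ± 72.4 in Type 2 TAM depleted and 490.4 ± 177 in Type 1 TAM depleted libraries (SD, n = 4 and 3), with a difference of -1.69 on the log2 scale and a limma-trend adjusted p of 0.138 (SE 0.43). Mcm3 had 459.6, 128, 595 and 162 in Type 2 TAM depleted and 1237, 1656 and 734 in Type 1 TAM depleted libraries (log2 fold change -2.06, SE 0.53, limma-trend adjusted p = 0.144). The Ccnb1 values given above corresponded to -2.47 (SE 0.68, limma-trend adjusted p = 0.174). Cdk1, the kinase that cyclin B activates, had 371, 59.8, 397 and 125 in Type 2 TAM depleted and 1078, 923 and 398 in Type 1 TAM depleted libraries (log2 fold change -2.004, SE 0.58, limma-trend adjusted p = 0.199). Without Type 2 TAM depleted 2 the median over the 47 genes was -0.90, and within the low-background libraries (2 Type 2 against 3 Type 1) it was -1.63, with 47 lower. This comparison shares its libraries with those of depletion above.

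The distance between replication and mitosis genes differed between the 4 groups by less than the spread between libraries. The mean log2 level of the 8 replication genes was 9.22 ± 0.58 in Type 1 TAM depleted and 8.54 ± 0.59 in Type 1 Control libraries (SD, n = 3 and 5). It was 7.76 ± 1.13 in Type 2 TAM depleted and 8.47 ± 0.72 in Type 2 Control libraries (SD, n = 4 each). The mean of the 17 mitosis genes was 9.19 ± 0.64 in Type 1 TAM depleted and 8.46 ± 0.59 in Type 1 Control libraries. It was 7.73 ± 1.38 in Type 2 TAM depleted and 8.43 ± 0.67 in Type 2 Control libraries. Replication minus mitosis was 0.03 ± 0.07 in Type 1 TAM depleted and 0.08 ± 0.17 in Type 1 Control libraries, and 0.03 ± 0.41 in Type 2 TAM depleted and 0.03 ± 0.34 in Type 2 Control libraries. The SD between libraries was 0.15 to 0.38 in the 4 comparisons. In Type 1 depletion the difference between groups was -0.05, but -0.55 with the background set as a term and 0.31 with background subtracted. Each Type 1 group lies in 1 background set, so the term was estimated from the Type 2 libraries alone. In Type 2 the means of replication minus mitosis were -0.28 in TAM depleted and -0.16 in Control libraries of high background, and 0.34 in TAM depleted and 0.22 in Control libraries of low background (n = 2 each). Over the 16 libraries the replication level spanned 3.01 and the mitosis level 3.56 log2 units, while their difference spanned 0.91. Its highest value, 0.56, was in Type 2 TAM depleted 2 and its lowest, -0.35, in Type 2 Control 1.

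**Figure D3:**
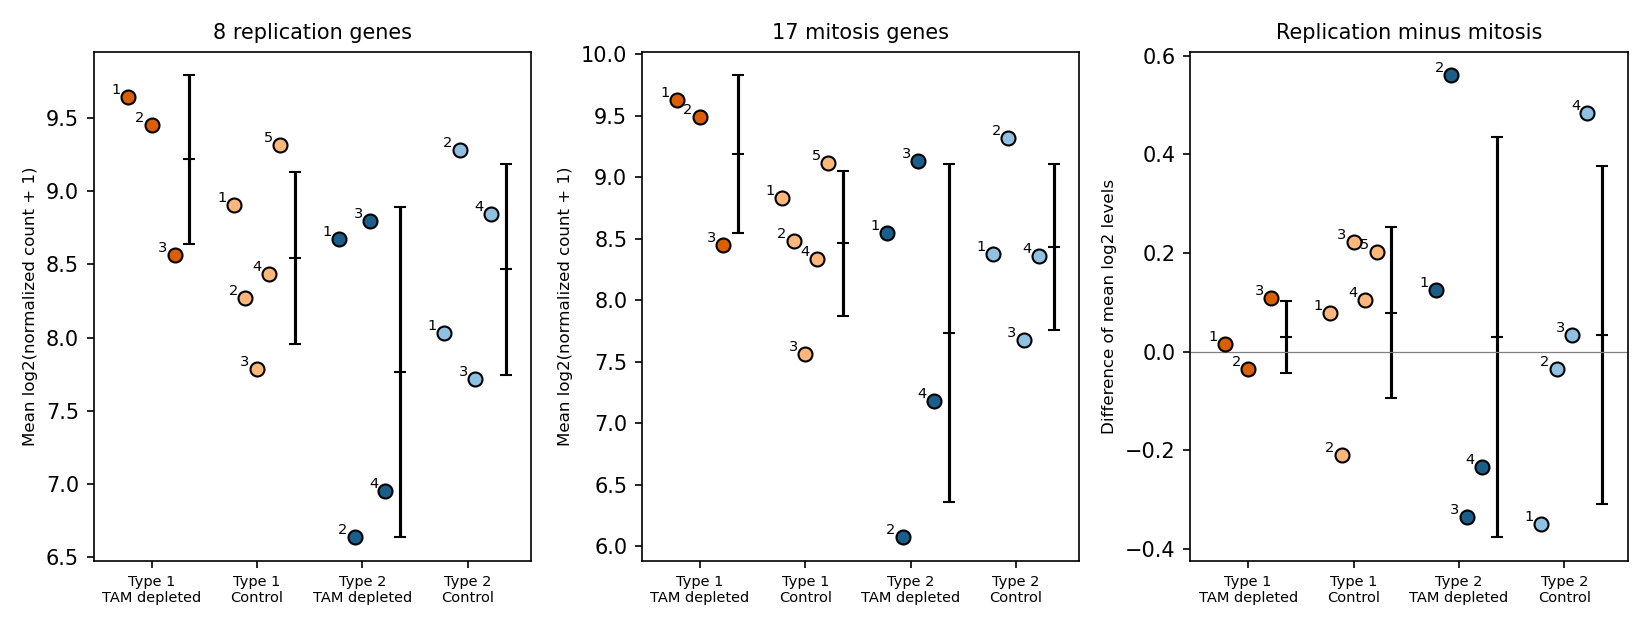
Mean log2(normalized count + 1) of the 8 replication genes, of the 17 mitosis genes, and their difference, by group; points are libraries with their number and bars are the mean ± SD. Both classes are lowest in Type 2 TAM depleted 2 and 4, and the difference lies between -0.35 and 0.56.

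**Figure D4:**
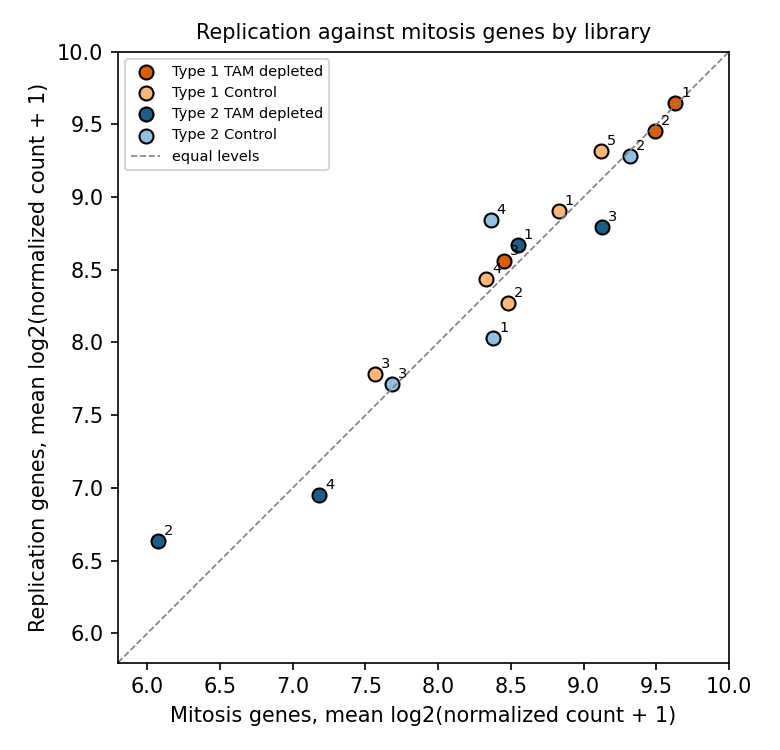
Mean log2(normalized count + 1) of replication genes (vertical) against mitosis genes (horizontal), 1 point per library with its number, coloured by group; the dashed line marks equal levels. The libraries lie along the line with Gins2 among the replication genes. Without Gins2 the mean replication level was above the mitosis mean in each group, and levels are not scaled for gene length. Closeness to the line therefore does not show equal levels of both programmes. With Gins2, Type 2 TAM depleted 2 is farthest above the line at 0.56 and Type 2 Control 1 farthest below it at -0.35.

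In 3 of the 4 groups the library with the highest level of neuron markers had the lowest level of the 47 genes. The mean log2 level of 10 neuron markers was 11.2 in Type 2 TAM depleted 1, 13.0 in TAM depleted 2, 10.1 in TAM depleted 3 and 11.5 in TAM depleted 4. The mean log2 level of the 47 genes in these libraries was 8.65, 6.46, 8.997 and 7.25, so that the order of the 4 libraries was the reverse of that of the neuron level. Over the group the neuron mean was 11.5 ± 1.19 in Type 2 TAM depleted and 7.54 ± 1.32 in Type 2 Control libraries (SD, n = 4 each). All 10 neuron markers were higher in Type 2 TAM depleted libraries and 7 of 10 passed the limma-trend test over all 16 libraries. With the Type 2 libraries alone, or in the Type 2 table, 0 genes of all those tested passed, so that these 7 calls and the 3 of TAM markers were lost. The summed neuron markers ranged from 22228 to 115240 normalized counts in Type 2 TAM depleted and from 2656 to 13454 in Type 2 Control libraries. In Type 1 the libraries of highest neuron and lowest cell cycle level were TAM depleted 3 (neuron level 11.7, cell cycle level 8.57) and Control 3 (11.3 and 7.75). In Type 2 Control the highest neuron level was in Control 4 (9.48), and the lowest cell cycle level in Control 3 (7.77). Between the kinds, 10 of 10 neuron markers were lower in Type 2 Control than in Type 1 Control libraries (2 past the limma-trend test), and 9 of 10 were higher in Type 2 TAM depleted than in Type 1 TAM depleted libraries (0 past the test). The 10 progenitor markers, such as Sox2 and Olig2, averaged 10.2 ± 0.95 in Type 2 TAM depleted and 10.3 ± 1.17 in Type 2 Control libraries. Their level was 11.3, 9.38, 10.6 and 9.44 in Type 2 TAM depleted 1 to 4, and 8.78, 11.6, 10.2 and 10.7 in Type 2 Control 1 to 4, so that the lowest was in Control 1, whose cell cycle level was 8.35. The mean log2 level of 6 oligodendrocyte markers was 10.5 ± 0.70 in Type 2 TAM depleted and 8.77 ± 1.19 in Type 2 Control libraries, highest in TAM depleted 2 (11.5), with 6 of 6 higher and 0 past the test. That of 8 T cell markers was 3.73 ± 1.32 in Type 2 TAM depleted and 5.62 ± 0.28 in Type 2 Control libraries, with 8 of 8 lower, no overlap of the libraries and 0 past the test. The part of neuron, oligodendrocyte and T cell RNA in the differences was not tested.

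**Figure D5:**
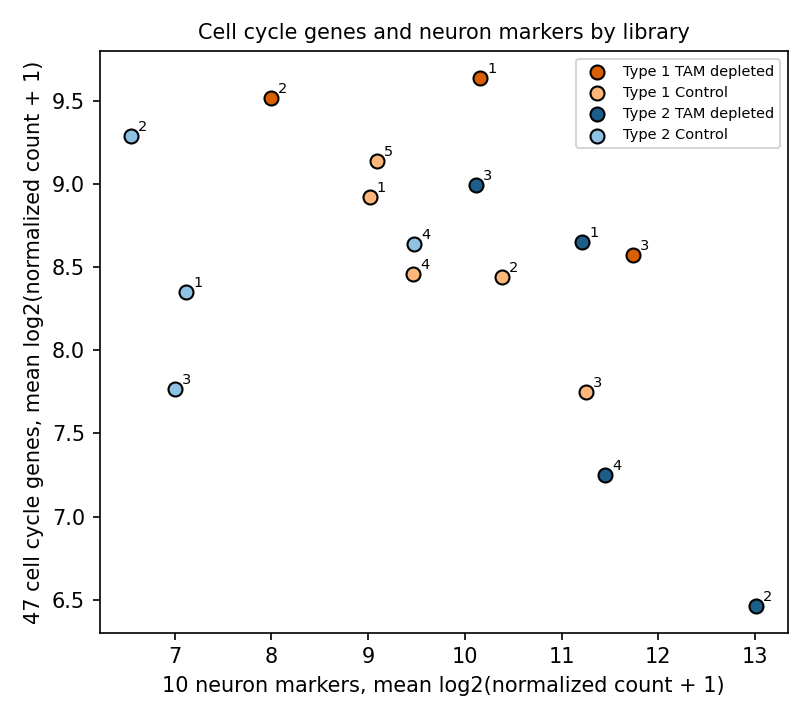
Mean log2(normalized count + 1) of the 47 cell cycle genes (vertical) against that of 10 neuron markers (horizontal), 1 point per library with its number, coloured by group. Type 2 TAM depleted 2 lies at the highest neuron level, 13.0, and the lowest cell cycle level, 6.46.

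Other genes of the cycle, not among the 47, did not pass the test between depleted and Control tumours of either kind. Of 31 further replication genes tested, 0 passed the limma-trend test in any comparison, with a median log2 fold change of -0.54 in Type 2 depletion, 0.57 in Type 1 depletion and -0.08 between the controls. Of 32 further mitosis genes tested, 0 passed, with medians of -0.67, 0.67 and -0.08 in the same comparisons. Of 15 cyclins D, their kinases and brakes of the G1 phase, 3 passed, all higher in Type 2 Control than in Type 1 Control libraries, where 3.09% of all genes passed in either direction. They were Ccnd3, a cyclin D (log2 fold change 2.398, SE 0.41, limma-trend adjusted p = 0.00268), Cdkn2c, an inhibitor of Cdk4 and Cdk6 (2.32, SE 0.42, adjusted p = 0.00442), and Rbl2, a pocket protein (0.86, SE 0.22, adjusted p = 0.0474). The mean log2 level of the 15 genes was 8.12 ± 0.21 in Type 1 TAM depleted and 7.42 ± 0.29 in Type 1 Control libraries (SD, n = 3 and 5), without overlap. In that comparison 39.1% of all genes were without overlap, and treatment and background cannot be told apart. None of the 15 passed the test there, and neither did any other gene (0% of genes tested). The median log2 fold change of the 15 genes was 0.86 between the controls, where that of the 47 genes was -0.00.

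Low levels limit some of these values. With the receptor genes as a measure of background, 0.231 to 27.8 normalized counts per kb, 29 of the 47 genes in Type 2 TAM depleted 4 and 28 in Type 2 Control 1 stood within 3 times the background of their library. The number was 1 to 6 in the Type 1 Control libraries, 2 in Type 2 Control 3 and 0 in the other 8. Exons of Ccne2, Mcm7, Ccna2, E2f8 and Prc1 overlap other genes over 11.1% to 17.4% of their length. Copies of Pcna (Pcna-ps2) and Ccnb2 (Ccnb2-ps) are in the table at 4.78 to 31.0 and 31.2 to 115 normalized counts, and reads could be split between a gene and its copy.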

How the data were processed

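Bulk RNA-seq was measured in 16 mouse glioblastoma libraries, whose cDNA came, per the labels' protocols, from a low-input SMART-Seq v4 kit that does not mark strand. The authors deposited variance-stabilized log2 values in 3 tables (26466 genes for all libraries, 30589 for Type 1 and 26130 for Type 2). Reads were processed with STAR 2.7.8a, GRCm38 and DESeq2, per the submitters' processing notes; the counter, annotation and DESeq2 version are not stated there. The plan assumed linear normalized counts, so the deposited log2 values were inverted to them. Whole reads were recovered for 100% of values (tolerance 0.05 reads), and the reads of the tables were equal in 100% of shared values.

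Genes with 10 or more normalized counts in 3 or more libraries (26463) were tested in 1 limma-trend fit (limma 3.58.1, R 4.3.3) of the 4 group means on log2(normalized count + 1). A fold change on this scale understates changes of low genes. P-values are 2-sided and were adjusted over all these genes by the Benjamini-Hochberg method. The fit had 12 residual and 4.74 prior degrees of freedom. No replicates agreed within sampling noise (chi-square per gene of at least 9.43). The libraries held 4.21 to 18.3 M reads, and Gins2, the lowest of the 47 genes, had 9 to 207 reads. Gene positions and exon lengths are from GENCODE on GRCm38 and promoter windows from RefSeq. The 47 genes, the marker lists and the tests were chosen with earlier results of these data known. Named beside the comparisons are the 4 genes of smallest p in each and a set of 13 genes of known roles. Other filters, pseudocounts, scalings, limma-voom, a replicate block, the background set as a term, subsets of libraries and leaving out each library were tried.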

Additional observations from a re-analysis of the deposited data

Results flagged for a closer look

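Each group of 4 or 5 libraries was examined for a single library far from the others, in 51 sets of values (13 genes and 4 summary levels in 3 groups). There were 3 such sets, and chance gives about 1 in 20. E2f1 had 262.1 normalized counts in Type 2 TAM depleted 3, against 113 to 127 in the other 3 libraries of the group. Mki67 had 10765 normalized counts in Type 2 Control 2, against 3301 to 4568 in the other 3 controls. Cdc20 had 706 normalized counts in Type 2 Control 2, against 147 to 228 in the other 3 controls.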

How the results depend on the processing

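Of the values recomputed under other settings, 778 counted as the same, 9 passed only under the alternative, 10 moved and 1 reversed. For a single gene, the same meant an unchanged direction and side of the threshold. For a median or class difference it meant a shift below the SD between libraries, and for a number called a similar number. A sign could thus change, as for the Type 2 depletion median, -0.70 over all libraries and 0.02 within the high-background libraries. In Type 1 depletion the median log2 fold change of the 47 genes was 0.082 when scaled on genes of high level and 0.15 with background subtracted as well. The number of the 47 called was 2 with the Type 1 libraries alone and 29 in the Type 1 table. Replication minus mitosis in Type 1 depletion was -0.55 with the background set as a term, which was estimated from the Type 2 libraries alone. It was 0.31 with background subtracted. In Type 2 depletion 1 of the 47 genes passed under upper quartile scaling, 1 under quantile scaling and 2 when scaled on genes of high level. Of all 26463 genes, 1289, 1213 and 1466 passed under these settings. Between the controls 1 of the 47 passed in the high-background libraries, where 1057 of 26463 genes did, and Cdk2 was -0.75 with background subtracted. The cause was not tested. The scaling on genes of high level and the subtraction of background were chosen after seeing the data. Leaving out each library in turn gave medians of 0.50 to 1.01 in Type 1 depletion, -1.12 to -0.24 in Type 2 depletion, -1.78 to -0.94 for their difference, -0.32 to 0.20 between the controls and -1.77 to -0.90 between the depleted groups, with 0 called throughout. All-gene calls in Type 2 depletion were 956, against 297 with a replicate block, 2635 with the background set as a term, 192 with background subtracted and 0 with the Type 2 libraries alone. Between the controls they were 819, against 347 with the block, 1804 under quantile scaling and 2343 by limma-voom; between the depleted groups they were 49, against 16 with the block. Same-numbered samples had correlations of deviations from -0.675 to 0.495. In Type 2 the correlations were positive within a background set and negative between the sets, for same-numbered and other samples alike. They therefore cannot decide whether the replicate numbers pair the samples, which is not known. With the replicate block 0 of the 47 genes were called, with medians of 0.82 in Type 1 depletion, -0.70 in Type 2 depletion, -1.51 for their difference, 0.04 between the controls and -1.35 between the depleted groups. Groups of 3 to 5 libraries and the low reads of genes such as Gins2 limit what could be detected.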
